A study of Mus musculus with 4 samples.

Results

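The genes described here are 10 genes of the interleukin-2 receptor pathway: the cytokine gene Il2, the receptor genes Il2ra, Il2rb, Il2rg and Il4ra, the kinase genes Jak1 and Jak3, the transcription factor genes Stat5a and Stat5b, and the survival gene Mcl1. They are 10 of 21887 protein-coding genes. A peak was counted at a gene if its summit lay inside the gene, or if the nearest end of any protein-coding gene, within 100 kb, belonged to it. By this rule 8 of the 1106 anti-Eos peaks and 1 of the 469 anti-Helios peaks fell at these genes.

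Interleukin-2 binds a receptor of an alpha chain (Il2ra, also called CD25), a beta chain (Il2rb) and the common gamma chain (Il2rg). The kinase Jak1 associates with the beta chain and Jak3 with the gamma chain, and together they phosphorylate Stat5a and Stat5b, which then enter the nucleus and bind DNA. Regulatory T cells (Treg cells) carry much of the alpha chain, make little interleukin-2 themselves and depend on interleukin-2 from other cells. Il4ra pairs with the gamma chain in the interleukin-4 receptor, and Mcl1 restrains the mitochondrial route of cell death.

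The study used chromatin immunoprecipitation with sequencing (ChIP-seq) of Eos and Helios, Ikaros family transcription factors with zinc fingers, encoded by Ikzf4 and Ikzf2. Cells were taken from mouse spleen with an isolation kit for CD4+CD25+ cells, so the product of Il2ra was itself a selection marker, and were fixed for 10 min in 1% formaldehyde. The 2 libraries used here were from wild-type (WT) mice, 1 with anti-Eos antibody 18H2 and 1 with anti-Helios antibody D8W4X. The other 2 libraries, from mice in which Foxp3-Cre acts on a floxed Eos gene, were not analysed here. Each of the 4 groups is 1 library, so there is no replicate error and no test between the antibodies, and all intervals cover counting error only. The fold of a peak is the authors' value for enrichment at its summit over a control that the sources used here do not name. Were it the Eos knockout library, a fold would compare genotypes and not bound with input DNA, and this cannot be told apart here.

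Folds reached 35.7 in the anti-Eos list and 23.3 in the anti-Helios list. For anti-Eos the fold had a median of 7.31 and quartiles of 6.09 and 9.19, and for anti-Helios a median of 7.66 and quartiles of 6.30 and 9.31. Weaker places were not listed, since the smallest -log10 q was 2.08 and 2.24. A median of 14 fragments lay behind an anti-Eos summit and 18 behind an anti-Helios summit, with minima of 7 and 9, as recovered from fold and p-value. Of 6 genes that mark Treg cells, 4 had an anti-Eos peak and 1 an anti-Helios peak, and Foxp3 had none. These 6 include Il2ra, itself among the genes described here and among the 4 with an anti-Eos peak. The 4 B cell, 4 CD8 T and NK cell and 4 myeloid marker genes had 0 peaks in either list. With 4.38% of all protein-coding genes holding an anti-Eos peak and 2.12% an anti-Helios peak, lists this small would often hold none. Such lists measure places recovered with an antibody and not expression.

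Of the peaks at the 10 genes, the anti-Eos peak at the start of Mcl1 was the one that overlapped a reference promoter. Il2rb has no promoter window in the reference, so its peaks, of both antibodies, could not be placed against a start. The Mcl1 promoter window is printed here because it is the only member sequence in the reference tables that a peak touches. Windows of Lta, which encodes the cytokine lymphotoxin alpha, and of Ccnd3, which encodes the cell cycle protein cyclin D3, are printed beside it. They come from the wider pathway and show a start with peaks of both antibodies and a start with an anti-Helios peak alone. They are examples chosen after values were seen. Of 47 other pathway genes with a window, 4 had an anti-Eos peak over it and 6 an anti-Helios peak. Over all protein-coding genes with a window the shares were 1.89% and 1.11%. Sequences are from RefSeq (GRCm38.p6), 5′ to 3′ on the strand of the gene, with 250 bases before and 50 after the annotated start. Capitals mark GGGAA or its complement TTCCC, the core of sites bound by Ikaros family proteins, searched on both strands.
Mcl1, chr3:95658471-95658770, plus strand: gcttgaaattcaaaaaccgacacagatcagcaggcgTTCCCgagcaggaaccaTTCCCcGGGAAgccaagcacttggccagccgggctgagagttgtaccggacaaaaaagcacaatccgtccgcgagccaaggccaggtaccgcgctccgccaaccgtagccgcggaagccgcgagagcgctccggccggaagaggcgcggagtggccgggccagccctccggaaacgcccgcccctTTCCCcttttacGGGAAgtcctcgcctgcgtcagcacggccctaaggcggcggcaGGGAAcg
Lta, chr17:35205302-35205601, minus strand: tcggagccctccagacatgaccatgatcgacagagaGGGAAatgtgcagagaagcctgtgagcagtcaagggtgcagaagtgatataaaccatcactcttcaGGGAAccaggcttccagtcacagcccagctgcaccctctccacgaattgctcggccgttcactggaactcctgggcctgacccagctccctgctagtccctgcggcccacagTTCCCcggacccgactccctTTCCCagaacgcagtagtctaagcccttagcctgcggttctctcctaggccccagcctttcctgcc
Ccnd3, chr17:47504801-47505100, plus strand: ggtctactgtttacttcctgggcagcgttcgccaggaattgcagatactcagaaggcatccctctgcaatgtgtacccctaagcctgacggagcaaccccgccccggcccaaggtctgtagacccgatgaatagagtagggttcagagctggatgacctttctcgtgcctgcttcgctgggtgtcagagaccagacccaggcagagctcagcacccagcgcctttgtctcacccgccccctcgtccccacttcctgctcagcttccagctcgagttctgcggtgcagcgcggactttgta

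The Mcl1 window held 6 matches to GGGAA, the Lta window 4 and the Ccnd3 window 0. Among all 32851 promoter windows of the reference, 62.7% held at least 1 match, 0.0883% held at least 6 and 2.31% held at least 4. The anti-Eos peak covered bases 258 to 300 of the Mcl1 window, and 1 of the 6 matches lay in these 43 bases. Its summit was at base 293, 42 bp after the annotated start. The peak ran on beyond the window, where no sequence was read. In the Lta window the summits stood at base 159 with anti-Eos and base 202 with anti-Helios, and in the Ccnd3 window the anti-Helios summit stood at base 266. The Ccnd3 start therefore carried an anti-Helios peak with no GGGAA in its window. This peak covered bases 17 to 300 and also ran on beyond the window, where no sequence was read.

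Promoter windows were available for 9 of the 10 genes, all but Il2rb, 11 windows in all. GGGAA was found in 6 of the 11, beside 62.7% of all windows of the reference. Of the 11, no window other than that of Mcl1 held more than 1 match. The site TTCNNNGAA, the form bound by STAT dimers, and CCGGAAGT, a form bound by ETS factors, were found in 0 of the 11. They occurred in 8.30% and 3.89% of all windows, on either strand. At such shares, 11 windows would often hold no match to a given site. The printed Lta window held 2 matches to TTCNNNGAA. A match of TTCNNNGAA can share letters with TTCCC. These are counts of letters in fixed windows and do not locate binding.

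Peaks of anti-Eos lay at 5 of the 10 genes, Il2ra, Il2rb, Il4ra, Jak1 and Mcl1. A peak of anti-Helios lay at 1, Il2rb, which was also the only gene with both. The same rule gave an anti-Eos peak to 4.38% of all protein-coding genes, an anti-Helios peak to 2.12% and both to 1.54%. Il2rb, Jak1 and Mcl1 had 2 anti-Eos peaks each, against 0.649% of protein-coding genes with 2 or more. The list of genes was drawn up with earlier results of these data known, so these shares describe it and are no test. The 10 genes ranged from 3.87 to 113 kb in length, with a median of 26.5 kb against 17.2 kb for all protein-coding genes and 28.8 kb for those with an anti-Eos peak.

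**Figure D1:**
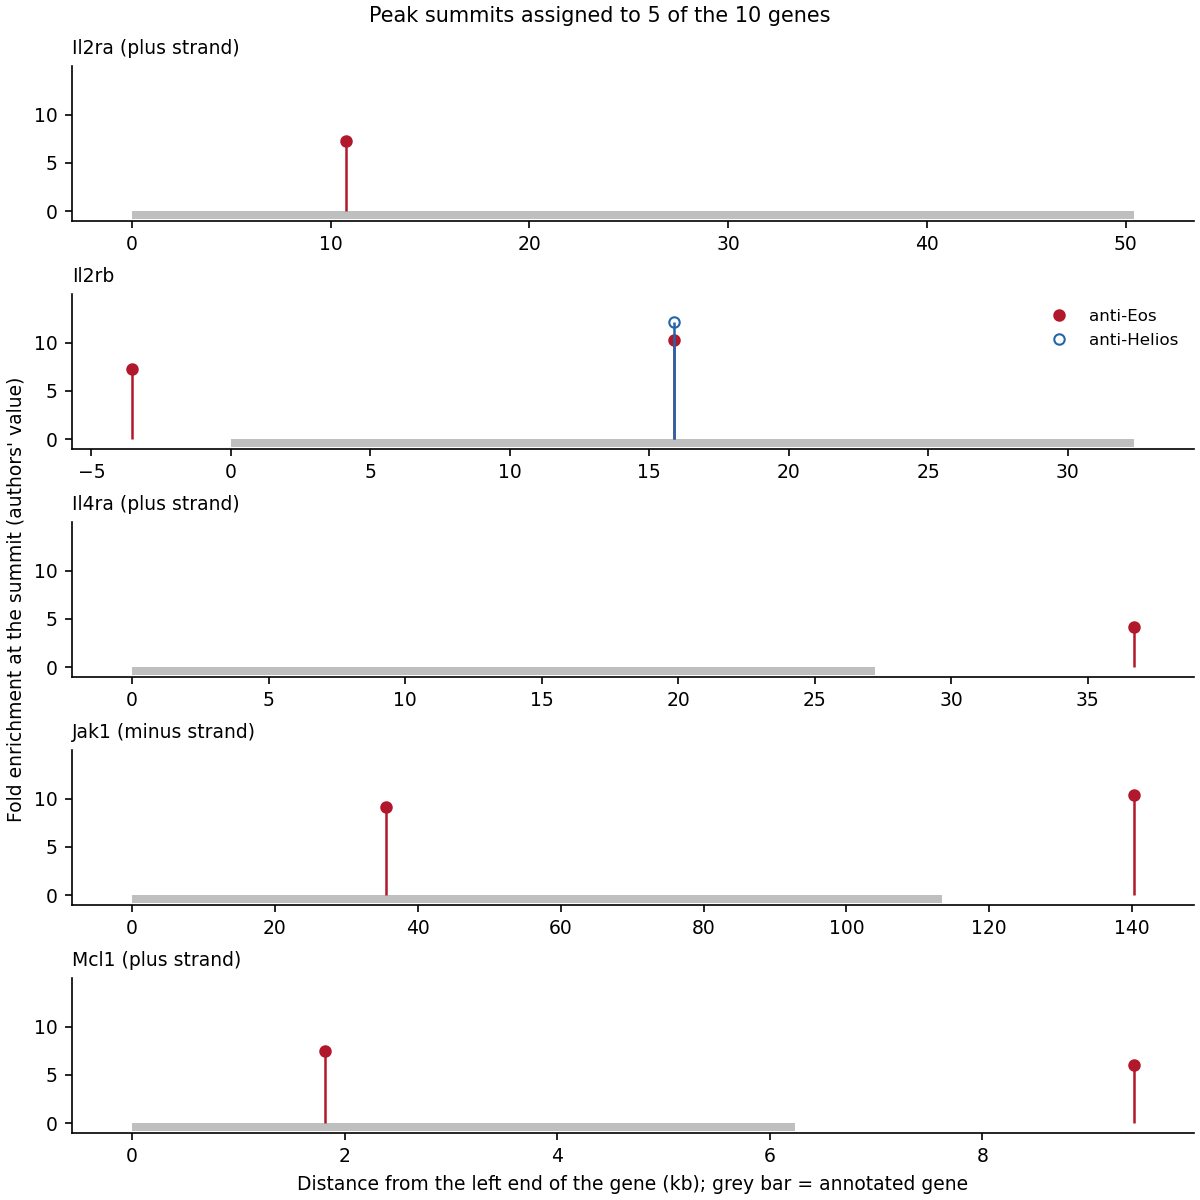
Fold enrichment (vertical axis, authors' value) of each assigned summit against its distance in kb from the left end of the gene, for the 5 genes with a peak. Filled red points are anti-Eos, the open blue point is anti-Helios and the grey bar is the annotated gene. The antibodies coincide at 1 place, inside Il2rb.

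For the ligand, Il2 (chr3:37120713-37125954), neither list held a peak near the gene. The nearest summits were 8.86 Mb away with either antibody and closest to Tnik.

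Il2ra, the alpha chain gene (chr2:11642792-11693194, plus strand), carried 1 anti-Eos peak and no anti-Helios peak. The anti-Eos peak (chr2:11653431-11653668) had a fold of 7.27 and a -log10 q of 9.75. Its summit lay inside the gene, 10.8 kb after the annotated start, and did not touch the promoter window. With 49.6% of the anti-Eos list at or below its fold, it was a mid-range peak. It rested on 20 fragments (exact 95% Poisson interval 12.2 to 30.9) over a local background of 2.0 control fragments. The nearest anti-Helios summit was 448 kb from the gene and closer to Prkcq.

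Il2rb, the beta chain gene (chr15:78479256-78511621), was the gene where the antibodies met. Inside the gene an anti-Eos peak (chr15:78495013-78495281) had a fold of 10.3 and an anti-Helios peak (chr15:78494877-78495327) a fold of 12.1. Their summits were 31 bp apart, 15.9 kb from the nearer end of the annotated gene. The anti-Helios peak enclosed the anti-Eos peak and was the wider, 451 against 269 bp. The table gives only the outermost ends of a gene, and Il2rb has no promoter window. Whether this place is a start used by some transcripts could therefore not be read here.

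The shared place inside Il2rb ranked high in both lists. The anti-Helios peak ranked 32 by fold, with 93.4% of its list at or below it, and the anti-Eos peak ranked 176, with 84.2% at or below. The anti-Eos summit held 19 fragments (exact Poisson interval 11.4 to 29.7) and the anti-Helios summit 26 (17.0 to 38.1), each over 1.00 control fragment. These intervals overlap. Total reads and controls of the libraries are not known here, so the folds are placed side by side and not compared. The -log10 q values were 14.0 and 18.3.

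A further anti-Eos peak lay outside Il2rb, 3.55 kb from its end and on the side of Tmprss6 (chr15:78475619-78475906). Its fold was 7.27, from 20 fragments (exact Poisson interval 12.2 to 30.9) over a background of 2.0 control fragments, without an overlapping anti-Helios peak. Fold, -log10 q, fragments and background were the same as those of the Il2ra peak. Peaks resting on few whole fragments often take identical values, and 9 anti-Eos peaks had this fold.

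The gamma chain gene Il2rg (chrX:101264385-101268255), which is shared by several cytokine receptors, had no peak of either antibody. The nearest anti-Eos summit was 161 kb away, 0.190 kb from an end of Nono, with a fold of 6.48. The nearest anti-Helios summit was 4.76 Mb away.

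Il4ra, the alpha chain gene of the interleukin-4 receptor (chr7:125552271-125579474, plus strand), had 1 weak anti-Eos peak beyond its 3′ end (chr7:125588898-125589019). The summit lay 9.47 kb past the gene in the 23.8 kb between Il4ra and Il21r, the interleukin-21 receptor gene. Its fold was 4.16 and its -log10 q 2.16, close to the smallest in the list, and 2.08% of the anti-Eos list lay at or below this fold. It held 11 fragments (exact Poisson interval 5.49 to 19.7) over 2.0 control fragments. A second anti-Eos peak in the same interval, with a fold of 4.68 and 7 fragments, was 14.7 kb from Il4ra and 9.07 kb from Il21r, and so counts at Il21r. The nearest anti-Helios summit was 790 kb from Il4ra.

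Jak1, the kinase gene of the beta chain (chr4:101151974-101265282, minus strand), had 2 anti-Eos peaks, and the nearest anti-Helios summit was 2.05 Mb away. The peak inside the gene (chr4:101187384-101187628) had a fold of 9.09, from 17 fragments (exact Poisson interval 9.90 to 27.2) over 1.04 control fragments. It lay 77.7 kb after the annotated start. Its distance to the nearer end of Jak1 was 35.6 kb and to an end of the neighbouring gene Raver2 35.2 kb, so it counts at both genes. The nearest annotated gene of any type was the small nuclear RNA gene Gm24468, 685 bp away.

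The other Jak1 peak lay upstream, 26.9 kb beyond the end at which the gene starts (chr4:101292111-101292275). With a fold of 10.4 it had the highest fold of the 8 anti-Eos peaks, and 85.3% of the list lay at or below it. It held 15 fragments (exact Poisson interval 8.40 to 24.7) over 0.575 control fragments. Its background of 0.542 stood at the lowest value found in the anti-Eos list. The long noncoding RNA gene Gm12796 ended or began 491 bp from the summit.

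Jak3, the kinase gene of the gamma chain (chr8:71676383-71690577), had no peak. The nearest summits were 470 kb away with either antibody, both close to an end of Rab8a, the anti-Eos peak with a fold of 9.60 and the anti-Helios peak with 4.81.

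Stat5a and Stat5b, which encode the transcription factors of the pathway, lie next to each other on chromosome 11, separated by 346 bp. Neither had a peak. The nearest anti-Eos summit was 66.8 kb from Stat5b and 145 kb from Stat5a. It had a fold of 11.0 and stood 0.0450 kb from an end of Hspb9, to which it was assigned. The nearest anti-Helios summit was 1.84 Mb from Stat5b.

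Mcl1, whose product keeps Treg and other lymphoid cells alive (chr3:95656944-95663179, plus strand), had 2 anti-Eos peaks. The peak at the promoter printed above (chr3:95658728-95658847) had a fold of 7.50 and a -log10 q of 11.0. It held 22 fragments (exact Poisson interval 13.8 to 33.3), the most of the 8 anti-Eos peaks, over 2.19 control fragments. Its summit was 1.82 kb from the outermost annotated end but 42 bp from the start used for the promoter window. Of all protein-coding genes with a window, 1.89% had an anti-Eos peak over it and 1.11% an anti-Helios peak.

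The second Mcl1 peak lay 3.19 kb past the end of the gene (chr3:95666288-95666412). It had a fold of 6.06 from 10 fragments (exact Poisson interval 4.80 to 18.4) over 0.866 control fragments. Further on, 9.78 and 11.3 kb from Mcl1, lay 2 anti-Eos peaks with folds of 6.17 and 4.50 that are closer to Adamtsl4 and were assigned to it. The nearest anti-Helios summit was 5.07 Mb from Mcl1.

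**Figure D2:**
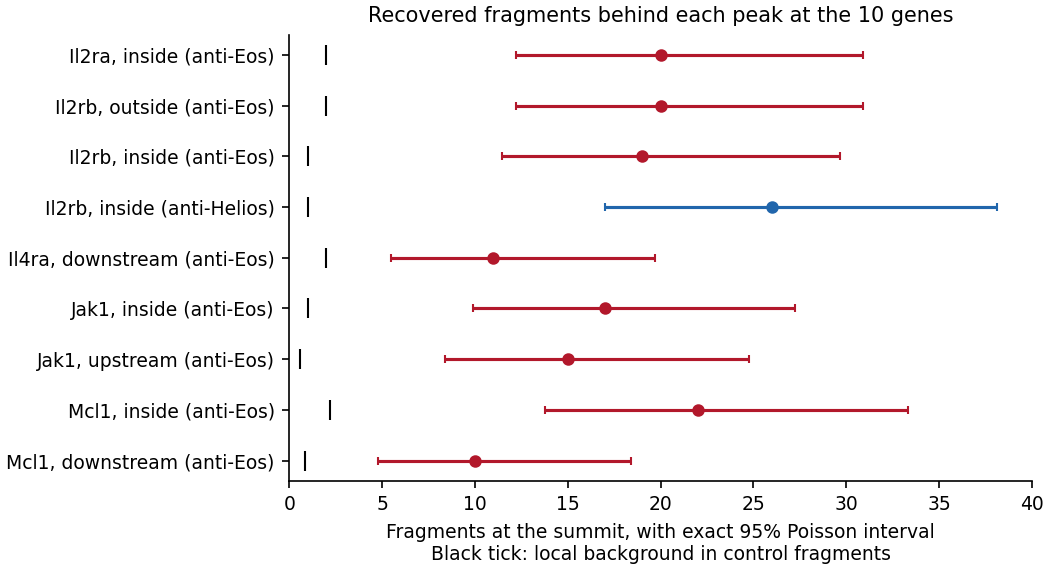
Fragments at the summit recovered for each of the 9 peaks at the 10 genes, with exact 95% Poisson intervals (red anti-Eos, blue anti-Helios). Black ticks mark the local background in control fragments. Counts run from 10 to 26 and the background ticks from 0.575 to 2.19. Peaks were listed for exceeding their background, so this gap is given by the calling.

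Within the anti-Eos list the 8 peaks were ordinary in size. Their median fold was 7.39 against 7.31 for the list, with 4 above and 4 below the list's median, and a range of 4.16 to 10.4. Their median was 18 fragments against 14 in the list, with a range of 10 to 22. Of the 8 summits, 4 lay inside Il2ra, Il2rb, Jak1 and Mcl1 and 4 outside. The share inside was close to the 55.5% of all anti-Eos summits that lay inside a protein-coding gene.

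**Figure D3:**
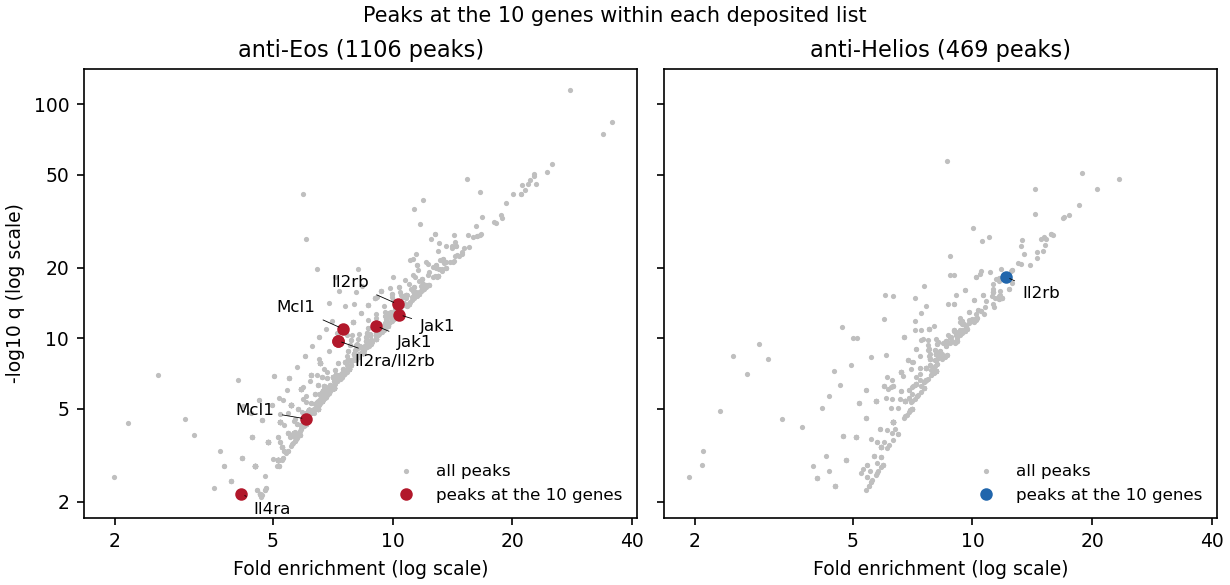
Fold enrichment against -log10 q (both axes logarithmic) for all peaks of each list (grey) with the peaks at the 10 genes in colour and named. The 8 anti-Eos peaks span folds of 4.16 to 10.4, and the 1 anti-Helios peak, at Il2rb, has a fold of 12.1. The peaks of Il2ra and of the outer Il2rb place fall on 1 point.

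Compared gene by gene, 1 gene had peaks of both antibodies, 4 (Il2ra, Il4ra, Jak1 and Mcl1) were listed with anti-Eos alone and 5 had no peak of either. Of the 8 anti-Eos peaks 1 overlapped an anti-Helios peak, against 27.9% of the whole anti-Eos list, and the 1 anti-Helios peak overlapped an anti-Eos peak, against 65.9% of its list. Of the 6 with a -log10 q of at least 5 it was again 1, against 32.8%. Of the 5 genes with an anti-Eos peak 1 also had an anti-Helios peak, against 35.1% of all such genes. Of the 3 genes with 2 anti-Eos peaks it was 1, against 59.2%. With so few peaks a share lower than that of the list cannot be told from it, and no test was made. A place missing from the anti-Helios list may hold signal below what was listed.

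**Figure D4:**
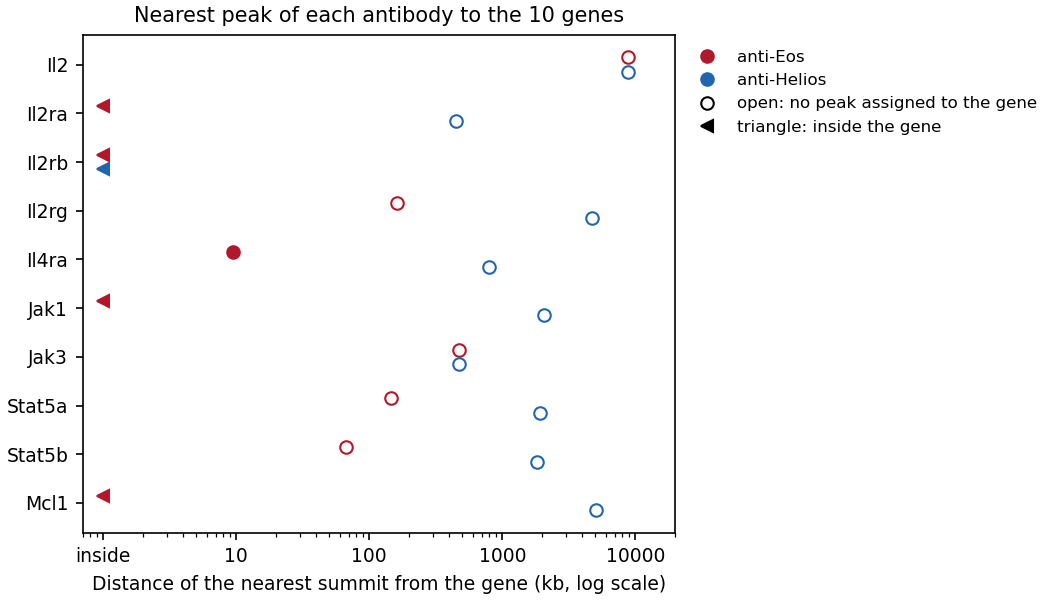
Distance in kb (logarithmic axis) from each of the 10 genes to the nearest summit of each antibody. Triangles at the left edge mark a summit inside the gene, and open circles a nearest summit that is not assigned to the gene. Il2rb is the only gene with both antibodies inside, and Il2 is the farthest from any anti-Eos peak, at 8856 kb.

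The assignment limit of 100 kb did not decide any of these 9 peaks closely. The farthest peaks assigned were those of Jak1, 26.9 and 35.6 kb from its ends. The nearest that went elsewhere were the Adamtsl4 and Il21r peaks named above and an anti-Helios peak of fold 6.74 that was 52.5 kb from Il2rb and closer to Rac2. An anti-Eos peak of fold 5.19 also lay near Rac2, 69.9 kb from Il2rb, and did not overlap it. Near Nsmce1, 60.7 and 63.5 kb from Il4ra, lay anti-Eos peaks with folds of 10.8 and 7.29.

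A list of 62 other genes of the pathway was examined by the same rule. Of these, 13 had an anti-Eos peak (21.0%), 9 an anti-Helios peak (14.5%) and 7 both, against 4.38%, 2.12% and 1.54% of all protein-coding genes. With the anti-Eos list shortened to the 469 peaks of highest -log10 q, 4 of the 62 had an anti-Eos peak, below the 9 with an anti-Helios peak, so the order of the antibodies depends on the length of the lists. This list too was drawn up with earlier results known. The 20 anti-Eos peaks of this wider list reached a median of 6.80-fold.

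Among 15 further cytokine and receptor genes 1 (6.67%) had anti-Eos peaks, Il21r, and 0 had an anti-Helios peak. Its 2 peaks had folds of 4.68 and 5.46. Il7r, Il15ra and Il21, for the interleukin-7 and interleukin-15 receptors and interleukin-21, had none. Among 7 further kinase and STAT genes Stat4 had 1 anti-Eos peak, inside the gene, with a fold of 7.03. None of the 7 had an anti-Helios peak. Of all protein-coding genes 4.38% had an anti-Eos peak and 2.12% an anti-Helios peak. With so few genes the counts of these 2 groups cannot be told from those shares, and no test was made. Jak2, Tyk2 and Stat3 were without a peak of either antibody.

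Feedback and phosphatase genes had the largest share, with an anti-Eos peak at 5 of 8 and an anti-Helios peak at 4 of 8. Over all protein-coding genes the shares were 4.38% and 2.12%. With the anti-Eos list shortened to 469 peaks, only Socs1 and Socs3 in this group kept an anti-Eos peak. The order of the antibodies in this group thus also depends on the length of the lists. Socs1, Socs3 and Cish, inhibitors that STAT5 is known to induce, had peaks of both antibodies. The overlapping pair at Socs1 had the highest folds of the wider list, 21.9 with anti-Eos and 20.5 with anti-Helios. At Socs3 no peaks of the antibodies overlapped. Ptpn6 (fold 6.57) and Ptpn11 (fold 8.02), which encode the phosphatases SHP-1 and SHP-2, had anti-Eos peaks only. Ptpn1, the gene of the phosphatase PTP1B, had only an anti-Helios peak, inside the gene, with a fold of 9.42.

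Among 14 genes of the signalling branches each antibody had peaks at 3 (21.4%), against 4.38% and 2.12% of all protein-coding genes. All anti-Eos peaks of this group had a -log10 q below 8.54, so none was in the shortened anti-Eos list. Grb2, an adaptor gene, had overlapping peaks 2.74 and 2.78 kb past its end, 6.58-fold with anti-Eos and 9.90-fold with anti-Helios. Pik3r1, the regulatory subunit gene of phosphoinositide 3-kinase, had overlapping peaks near its start with folds of 6.17 and 9.96 and summits 161 bp apart. The catalytic subunit gene Pik3cd had 2 anti-Helios peaks (folds 9.62 and 8.53) and no anti-Eos peak.

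Of 18 known STAT5 targets and survival genes 3 (16.7%) had anti-Eos and 2 (11.1%) anti-Helios peaks, against 4.38% and 2.12% of all protein-coding genes. Ccnd3 had the overlapping pair with the most fragments in the 62 genes, inside the gene 3.07 and 3.02 kb from its start and over 4.0 and 3.0 control fragments. The anti-Eos summit held 53 fragments (exact Poisson interval 39.7 to 69.3) at a fold of 11.3 and the anti-Helios summit 48 (35.4 to 63.6) at a fold of 11.0. At its start the anti-Helios peak of the printed window had a fold of 9.01, and no anti-Eos peak overlapped it. Ccnd2, the cyclin D2 gene, had 2 anti-Eos peaks either side of an end, with folds of 9.94 and 9.74, and no anti-Helios peak. At Lta the overlapping peaks stood at 4.70-fold with anti-Eos and 7.21-fold with anti-Helios, and a further anti-Eos peak inside the gene had 5.15. Bcl2, Bcl2l1 and Bcl2l11, relatives of Mcl1 that restrain or promote cell death, and Myc and Pim1 had no peak.

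**Figure D5:**
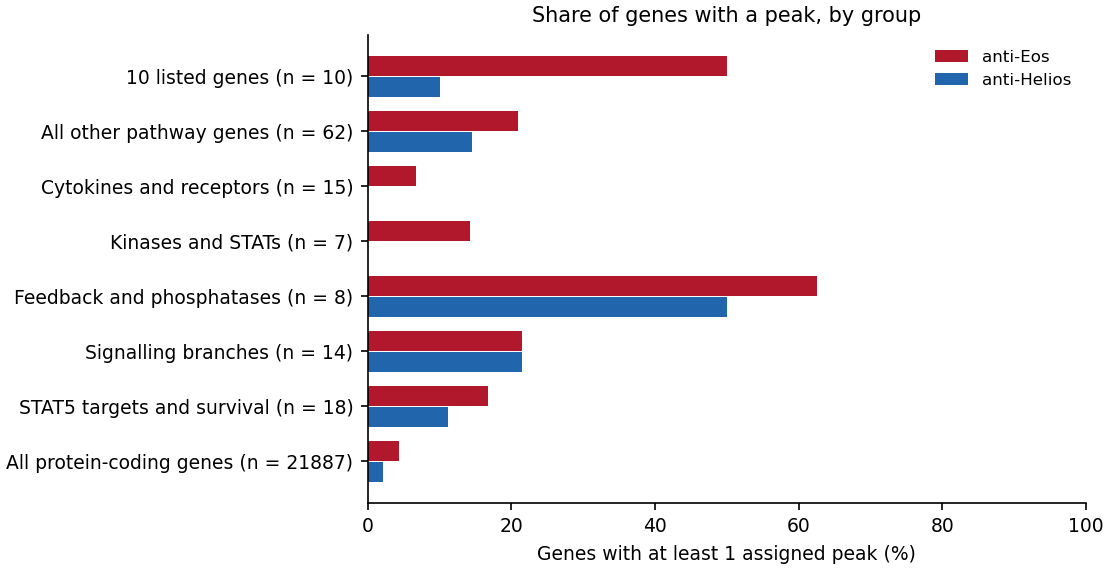
Percent of genes with at least 1 assigned peak for the 10 genes, the 62 other pathway genes and their 5 groups, and all protein-coding genes (red anti-Eos, blue anti-Helios). Bars start at 0. The 10 genes stand at 50.0% and 10.0%, the feedback and phosphatase genes at 62.5% and 50.0%, and all protein-coding genes at 4.38% and 2.12%. With anti-Eos peaks limited to 469, 4 of the 62 genes have one.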

How the data were processed

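Per the submitters' processing notes, the tools were BWA 0.7.1, cutadapt 4.4, SAMtools 1.17, deepTools 3.5.1 and Picard, and the genome was GRCm38.p6 (mm10). Which program called the peaks, and against which control, is not given in these sources. Each deposited peak list gave the authors' fold (a ratio), -log10 p-value, -log10 q-value, an integer score that follows the -log10 q-value, and the summit offset. Lists were called per library, so they were compared by overlap of at least 1 bp.

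Fragments at a summit and the local background were solved from fold and p-value taking fold as (scaled fragments + 1) / (background + 1) and the p-value as the Poisson chance of more fragments. Both values were met for 100% of peaks within a relative tolerance of 0.0001, with fragments scaled by 1 for anti-Eos and 0.895 for anti-Helios. This formula was inferred from the values. A background of 0.943 (anti-Eos) or 1 (anti-Helios), the most frequent value, was taken as 1 control fragment. The solution and the assignment were tested on simulated data. The simulated folds and p-values were made with the same formula, so this checked the solving and not whether the formula holds for the deposited peaks. Total reads per library are unknown.

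Gene ends came from RefSeq for GRCm38.p6, with no exons. Strand came from the promoter table. All 10 genes with every peak were named, and of the 62 others those with a peak (1 is counted but not reported here), plus some of those without one. The latter were chosen after values were seen, as were the promoter windows of Lta and Ccnd3. The genes and lists were chosen with earlier results of these data known. Python 3.11.15, numpy 2.4.6, pandas 2.3.3, scipy 1.17.1 and matplotlib 3.10.9 were used.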

Additional observations from a re-analysis of the deposited data

How the results depend on the processing

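The 8 counts reported (peaks, genes and overlaps at the 10 genes, and genes of the wider list) were recomputed with a -log10 q of at least 5, with only as many anti-Eos peaks as the anti-Helios list holds, with assignment within 10 or 500 kb, with all annotated genes as candidates, with only the nearest gene end, without peaks over more than 3 control fragments, and, for the overlap count, with an overlap of at least 50% of both peaks or summits at most 100 bp apart. Of 58 values, 57 stayed within 1.5 times the reported count. Many of these values could hardly move, so this share is no measure of robustness. Shortening the anti-Eos list leaves the anti-Helios counts as they are. The counts of 1 rest on the Il2rb pair, with -log10 q values of 14.0 and 18.3, above every limit used. With the 469 anti-Eos peaks of highest -log10 q (at least 8.54), 4 other pathway genes in place of 13 had an anti-Eos peak, since fewer peaks enter. Ptpn11 has a -log10 q equal to this limit and fell outside because ties were ordered by position. Under the -log10 q limit and in this shorter list 6 of the 8 member peaks were left. Il4ra lost its peak and Mcl1 the peak beyond its end, while Il2ra, Il2rb, Jak1 and Mcl1 each kept at least 1. Il2rb kept its anti-Helios peak under all of these settings, but none of them could have removed a peak of this strength and place. No paired analysis was possible because each group is 1 library, and no library could be left out. Few fragments per peak limit the precision of each fold, and absence from a list is not absence of signal.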
